A study of Mus musculus with 12 samples.

Results

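White and brown fat marker genes were followed on arrays of mouse adrenal RNA, as a measure of how much of the fat around the gland each RNA pool held. The 10 listed genes make up the set, namely the white fat hormones Adipoq, Lep, Retn and Cfd, the lipid droplet proteins Cidec and Plin1, and the brown fat genes Ucp1, Cidea, Dio2 and Elovl3. Each gene was read from the probe set that names it alone and has the highest mean signal over all arrays. Of the 10 listed genes, 9 had such a probe set and all 9 passed the filter on dim genes, which 15900 of 16244 genes passed. Cfd was not analysed here. The adrenals came from male C57Bl/6J mice killed at 21 weeks, without genetic modification, and the 4 conditions were CON, CGP, ASP and ASP+CGP. CON mice received neither agent. CGP mice were exposed during development only to CGP 39551, a competitive antagonist of the NMDA receptor for glutamate, at 5 mg/kg body weight. ASP mice took the sweetener aspartame from before birth into adult life, at 46 mg/kg body weight, and ASP+CGP mice had both treatments, all by way of the drinking water. RNA from the mice of a condition was mixed in equal amounts into 1 pool, and each of the 4 pools was put on 3 Affymetrix Mouse Gene 1.0 ST arrays. Every error, interval and p-value below therefore covers the spread between 3 arrays of 1 pool and carries no information on the spread between mice.

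White adipocytes store triglyceride in a single large droplet and secrete adiponectin, leptin and resistin into the blood. Brown adipocytes hold many small droplets and many mitochondria, and burn fatty acids for heat through the uncoupling protein UCP1. The mouse adrenal lies in a fat pad that contains both kinds of adipocyte, so dissected glands usually carry some fat with them. In whole-tissue RNA a lower signal can come from fewer cells of a type or from less RNA per cell, and these cannot be told apart.

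The promoters of Lep and Ucp1 are shown as examples, Lep because it was the white fat hormone with a called difference and Ucp1 because it is the defining gene of brown fat. Both run from 250 bases before to 50 bases after the gene's start in RefSeq, build GRCm38.p6, plus strand. The Lep window is chr6:29059971-29060270 and the Ucp1 window is chr8:83290098-83290397. Capitals mark a C/EBP box (TTGCGCAA) in Lep and a nuclear receptor half-site (AGGTCA) in Ucp1.
Lep: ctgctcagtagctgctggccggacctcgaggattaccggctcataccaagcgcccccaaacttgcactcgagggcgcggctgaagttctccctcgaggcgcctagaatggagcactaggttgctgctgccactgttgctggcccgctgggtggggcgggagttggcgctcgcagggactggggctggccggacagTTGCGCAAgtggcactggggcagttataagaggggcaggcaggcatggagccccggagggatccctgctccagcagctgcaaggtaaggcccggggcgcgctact
Ucp1: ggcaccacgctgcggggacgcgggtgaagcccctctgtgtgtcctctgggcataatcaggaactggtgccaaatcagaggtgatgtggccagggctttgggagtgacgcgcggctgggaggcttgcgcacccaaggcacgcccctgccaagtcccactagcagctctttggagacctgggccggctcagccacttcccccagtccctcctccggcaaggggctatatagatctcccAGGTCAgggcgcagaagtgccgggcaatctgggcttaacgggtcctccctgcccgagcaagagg
Both strands were searched for 4 motifs. The C/EBP box occurred in 0.183% of 32851 mouse promoter windows of the same length, the half-site in 16.3%, the cyclic AMP element TGACGTCA in 1.79% and the TATA box TATAAA in 13.6%. Of the 10 listed genes, 8 had a promoter entry (Cidea and Elovl3 had none), and each of the 4 motifs was found in 1 of these 8. The cyclic AMP element and the TATA box both lay in the window of Dio2. These matches describe letters and not bound sites.

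The glands gave strong signals for adrenal genes in all pools, with mean log2 signals between 13.41 and 13.64 for Star, the cholesterol transporter of steroid synthesis, and between 12.97 and 13.39 for Th, the first enzyme of catecholamine synthesis. Arrays of a pool correlated with each other at r of 0.989 to 0.995 over all probe sets, and no arrays were identical. The array medians lay between 7.84 and 7.94 on the log2 scale. The interquartile range was narrower on the ASP+CGP arrays, at 2.20 to 2.29, than on the other 9 arrays, at 2.52 to 2.69. Liver genes and nerve cell genes differed widely between pools, and their values are given beside the fat genes they concern.

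Fat RNA was present in every pool, and on the deposited scale 7 of the 9 fat markers differed by less than 1.4-fold between any pools. With cyclic loess scaling Cidea (0.60) and Dio2 (-0.52) passed 1.4-fold in ASP+CGP against CON. The signals of Adipoq, Ucp1, Cidec, Plin1 and Retn were above 11 on all 12 arrays. The highest and lowest pool means differed by 1.15-fold for Retn, 1.21-fold for Ucp1, 1.22-fold for Cidea, 1.26-fold for Plin1, 1.28-fold for Dio2 and Adipoq and 1.31-fold for Cidec. Lep, with 1.54-fold, and Elovl3, with 2.57-fold, differed by more. A difference was called where limma gave an adjusted p below 0.05, by the Benjamini-Hochberg method over all 15900 genes, and a fold of at least 1.4. By this rule 5 of 45 member values over the 5 comparisons of pools were called, 3 of them for Elovl3 and 2 for Lep. This is 11.1%, where 14.7% of the values of all genes were called. The 95% interval lay inside 1.4-fold in both directions for 35 of the 45 values, or 77.8%, where 66.9% of the values of all genes did so. Adipoq, Ucp1, Cidea, Plin1 and Retn lay inside it in all 5 comparisons.

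**Figure D1:**
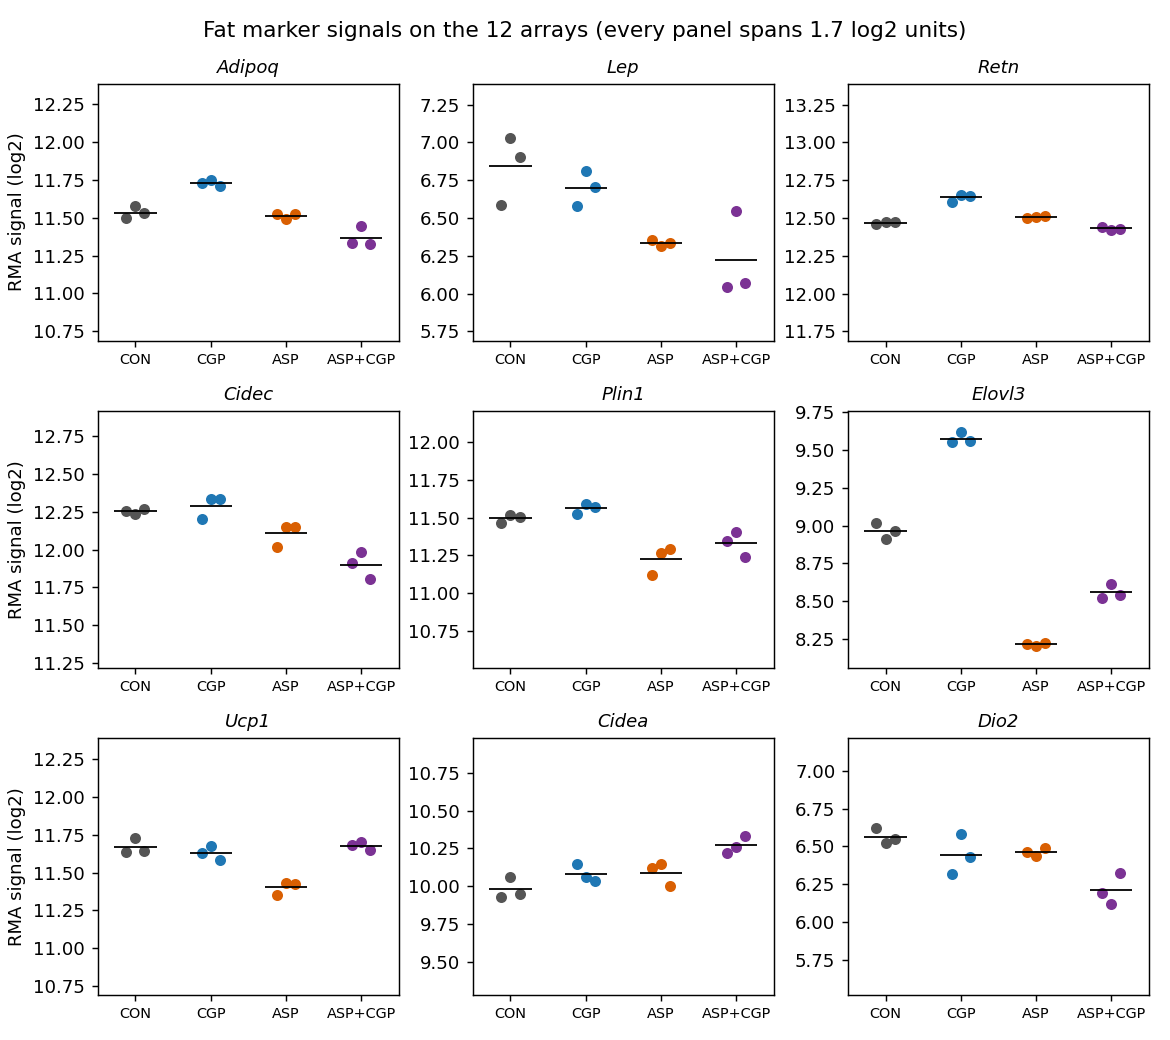
Log2 signal of each of the 9 fat markers (vertical axis, every panel spanning 1.7 units) on the 12 arrays, grouped by pool (horizontal axis); points are arrays and lines are pool means. Elovl3 separates all 4 pools, Lep is lower on all 6 aspartame arrays than on the CON and CGP arrays, and the other members stay within 0.39 between their highest and lowest pool means.

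Adipoq encodes adiponectin, the most abundant hormone of adipocytes. Its log2 signals were 11.50, 11.58 and 11.53 on the CON arrays, 11.73, 11.75 and 11.71 on the CGP arrays, 11.52, 11.49 and 11.52 on the ASP arrays, and 11.33, 11.45 and 11.33 on the ASP+CGP arrays. The CGP arrays were all above the others and the ASP+CGP arrays all below them, while CON and ASP overlapped. ASP differed from CON by -0.02 ± 0.05 (SE, n = 3 arrays each; limma, adjusted p = 0.763), a value that became 0.10 with cyclic loess scaling. The difference from CON was 0.20 in CGP (95% interval 0.08 to 0.31, adjusted p = 0.0754). In ASP+CGP it was -0.17 (-0.28 to -0.05, adjusted p = 0.0133), under the fold minimum and turned to 0.03 by cyclic loess.

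Lep encodes leptin, which signals the size of fat stores to the brain. Its signal was near the dim end of the scale. The CON arrays read 6.59, 7.03 and 6.91, and the CGP arrays 6.58, 6.81 and 6.70. The ASP arrays read 6.36, 6.32 and 6.34, and the ASP+CGP arrays 6.05, 6.55 and 6.07. Every array of both aspartame pools was below every CON array, and CON and CGP overlapped. Lep fell to 0.705 of CON in ASP (log2 difference -0.51 ± 0.13 SE, limma adjusted p = 0.00335) and to 0.650 of CON in ASP+CGP (-0.62 ± 0.13, adjusted p = 0.000629). The ASP value sits just past the fold minimum. It was not called after the arrays were centred on their medians (-0.48), with cyclic loess (-0.45) or without CON replicate 2 or 3. The ASP+CGP arrays overlapped the ASP arrays, and this difference was -0.12 (adjusted p = 0.431).

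Retn encodes resistin, a hormone that mouse adipocytes secrete, and was the steadiest member. Its signals were 12.46, 12.48 and 12.48 in CON, 12.61, 12.66 and 12.65 in CGP, 12.50, 12.50 and 12.52 in ASP, and 12.44, 12.42 and 12.43 in ASP+CGP. As for Adipoq, the CGP arrays were highest and the ASP+CGP arrays lowest, without overlap. The differences from CON were 0.17 in CGP (limma adjusted p = 0.108), 0.04 in ASP (0.56) and -0.04 in ASP+CGP (0.484), the last of which turned to 0.08 with cyclic loess and to 0.03 after median centring.

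Cidec and Plin1 coat the lipid droplet, where CIDEC lets droplets merge and perilipin 1 gates access of the lipases. Cidec read 12.26, 12.24 and 12.27 in CON, 12.21, 12.34 and 12.33 in CGP, 12.02, 12.15 and 12.15 in ASP, and 11.91, 11.98 and 11.80 in ASP+CGP. Plin1 read 11.47, 11.52 and 11.51 in CON, 11.52, 11.59 and 11.57 in CGP, 11.12, 11.27 and 11.29 in ASP, and 11.34, 11.40 and 11.24 in ASP+CGP. All arrays of both aspartame pools were below all CON arrays for both genes, and neither gene reached the fold minimum in any comparison. Cidec differed from CON by -0.15 in ASP (limma adjusted p = 0.0649) and by -0.36 in ASP+CGP, or 0.781 of CON (adjusted p = 0.000269). Plin1 differed from CON by -0.27 in ASP, or 0.830 of CON (adjusted p = 0.00192), and by -0.17 in ASP+CGP (adjusted p = 0.0253), a value that turned to 0.04 with cyclic loess.

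Ucp1, the heat-producing uncoupling protein of brown fat, read 11.63, 11.73 and 11.64 in CON, 11.63, 11.68 and 11.58 in CGP, 11.35, 11.43 and 11.43 in ASP, and 11.68, 11.70 and 11.65 in ASP+CGP. The ASP arrays were all lower than the other 9, which overlapped. Ucp1 in ASP was 0.832 of CON (log2 difference -0.27 ± 0.05 SE, limma adjusted p = 0.000803), under the fold minimum, and ASP+CGP differed from CON by 0.01 (95% interval -0.11 to 0.13). Cidea, a droplet protein abundant in brown fat, read 9.93, 10.06 and 9.95 in CON, 10.15, 10.06 and 10.04 in CGP, 10.12, 10.15 and 9.999 in ASP, and 10.22, 10.26 and 10.33 in ASP+CGP. Its ASP+CGP arrays were above all others, at 1.22-fold of CON (0.29, adjusted p = 0.000926), again under the fold minimum except with cyclic loess, where it was called at 0.60. Both genes lacked a called difference in all 5 comparisons, in which their intervals stayed inside 1.4-fold.

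Dio2, the deiodinase that activates thyroid hormone in brown fat and in glial cells of the brain, was dim. It read 6.62, 6.52 and 6.55 in CON, 6.32, 6.58 and 6.43 in CGP, 6.46, 6.44 and 6.49 in ASP, and 6.19, 6.12 and 6.33 in ASP+CGP. The ASP arrays were just below the CON arrays and the CGP arrays overlapped both. In ASP+CGP it was 0.782 of CON (-0.36, 95% interval -0.51 to -0.20, limma adjusted p = 0.000672), and cyclic loess gave -0.52, past the fold minimum.

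Elovl3 was the member that differed most. It encodes an elongase of very long fatty acids that is made in brown fat and also in liver and in the sebaceous glands of the skin. Its log2 signals were 9.02, 8.91 and 8.96 in CON, 9.55, 9.62 and 9.56 in CGP, 8.22, 8.20 and 8.23 in ASP, and 8.52, 8.61 and 8.54 in ASP+CGP. No pools overlapped, and the order was CGP, CON, ASP+CGP and ASP from high to low. Elovl3 rose 1.53-fold over CON in CGP (log2 difference 0.61 ± 0.05 SE, limma adjusted p = 3.28e-06) and fell to 0.595 of CON in ASP (-0.75 ± 0.05, adjusted p = 2.01e-08). In ASP+CGP it was 0.755 of CON (-0.40, adjusted p = 3.11e-05), under the fold minimum, and fell to 0.494 of CGP (-1.02, adjusted p = 1.69e-09). The direction of these values was the same with median centring and with cyclic loess. Cyclic loess gave -0.58 for ASP, 0.60 for CGP and -0.13 for ASP+CGP against CON (limma adjusted p = 0.0471).

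Genes of hepatocytes moved with Elovl3 in CGP and ASP. Of 20 tested, 14 were called higher in CGP (median log2 difference 0.57), against 1.62% of all genes. In ASP 14 were called lower (median -1.02), against 8.13%, and in ASP+CGP 18 (median -1.45), against 8.32%. All 20 differences were positive in CGP (0.29 to 1.51) and negative in ASP+CGP (-1.96 to -0.32). In ASP the differences of these genes ran from -1.52 to 0.22. The log2 of their summed signal was 15.86 to 15.90 on the CON arrays, 16.41 to 16.45 on the CGP arrays, 15.24 to 15.26 on the ASP arrays and 14.81 to 14.91 on the ASP+CGP arrays. Alb, which encodes serum albumin, had pool means from 12.42 to 13.64, so that no pool lacked it. These genes were lowest in ASP+CGP, whereas Elovl3 was lowest in ASP. Their part in the result for Elovl3 was not tested. The 4 genes whose 12 array values, centred on CON, lay nearest to those of Elovl3 were Dusp5, Pemt, Ccn1 and Abca6, at root mean square differences of 0.07 to 0.12. This search was added after the values of Elovl3 had been seen and was also run for Lep. The genes nearest to Lep were Zbtb2, Med30, Cpm and Ttc12, at 0.10 to 0.12. Adipoq and Ucp1 were not matched in this way because their pool means differed by less than 1.4-fold.

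Set by comparison, 2 of the 9 members were called lower in ASP against CON (Lep and Elovl3) and none higher, against 8.13% lower and 9.81% higher among all genes tested. The arrays of the pools did not overlap for 7 of 9 members, against 63.6% of all genes, and 4 of 9 had an adjusted p below 0.05, against 55.3%. The median member difference was -0.15, and the median over all genes was -0.10. Genes with a CON signal between 11 and 12, the level of Adipoq, Ucp1 and Plin1, had a median of -0.17. In CGP against CON, 1 of 9 members was called higher (Elovl3), and none lower, against 1.62% higher and 0.0189% lower among all genes. The median was 0.07 against 0.00 over all genes. The pools did not overlap for 4 members, Adipoq, Plin1, Retn and Elovl3, where 16.5% of all genes did not, and only Elovl3 had an adjusted p below 0.05, where 3.01% of all genes had one. For ASP+CGP against CON, 1 of 9 was called lower (Lep) and none higher, against 8.32% lower and 6.09% higher among all genes. The pools did not overlap for 8 members, where 75.3% of all genes did not, and 7 members had an adjusted p below 0.05, where 72.7% of all genes had one. The median of -0.17 equalled that over all genes to 2 decimals. Genes at a CON signal of 11 to 12 had a median of -0.25 in that comparison. With cyclic loess the members' median in ASP+CGP turned to 0.03, while the median over all genes moved up by 0.15. Against CGP, 1 of 9 was called lower in ASP+CGP (Elovl3) and none higher, against 11% lower and 8.57% higher among all genes. The pools did not overlap for 7 members, where 75.2% of all genes did not, and 8 had an adjusted p below 0.05, where 75.6% of all genes had one.

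**Figure D2:**
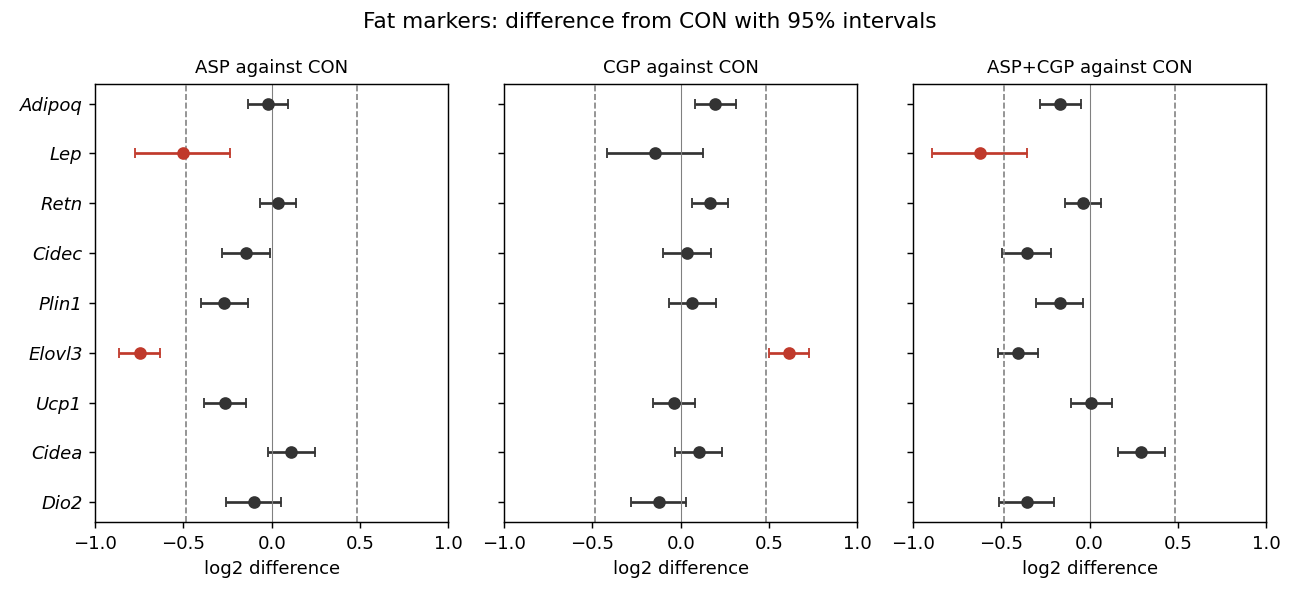
Log2 difference of each fat marker (rows) from CON in ASP, CGP and ASP+CGP (panels); points are limma estimates, bars their 95% intervals over arrays, dashed lines 1.4-fold and red points called differences. Called values are Lep and Elovl3 in ASP, Elovl3 in CGP and Lep in ASP+CGP, and most other intervals lie between the dashed lines.

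The direct comparison of the aspartame pools asks what developmental NMDA receptor antagonism added to aspartame. Between ASP+CGP and ASP limma called 0 of 9 members, where 19.9% of all genes were called. An unadjusted p below 0.05 was found for 6 members, the same 6 had an adjusted p below 0.05, and the unmoderated linear model also called 0. Among all genes, 63.1% had an adjusted p below 0.05 in this comparison. Of the 4 brown fat members, Ucp1 (0.27, adjusted p = 0.000612), Cidea (0.18, 0.0208) and Elovl3 (0.34, 7.7e-05) were higher in ASP+CGP and Dio2 (-0.25, 0.00742) was lower. Adipoq (-0.14, 0.0307) and Cidec (-0.21, 0.0111) were lower too. The arrays of the pools did not overlap for 7 of 9 members, namely these 6 and Retn, and for 65.4% of all genes. Ucp1 kept its sign under both rescalings and was 0.35 with cyclic loess. Retn differed by -0.07, Lep by -0.12 and Plin1 by 0.10, none with an adjusted p below 0.05.

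The difference of differences, (ASP+CGP minus CGP) minus (ASP minus CON), tests whether the aspartame difference depended on CGP 39551. It called 0 of 9 members at the fold minimum, where 24.6% of all genes were called, and the unmoderated linear model also called 0. An adjusted p below 0.05 was found for 5 members, the same number that had an unadjusted p below 0.05, and 51.4% of all genes had one. Ucp1 had a value of 0.31 ± 0.08 (SE, limma adjusted p = 0.0042). Adipoq had -0.34 ± 0.08 (0.00212), Elovl3 -0.27 ± 0.08 (0.00884), Cidec -0.25 ± 0.09 (0.0356) and Retn -0.24 ± 0.07 (0.00979). The positive value was that of Ucp1, and the other 4 were negative.

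**Figure D3:**
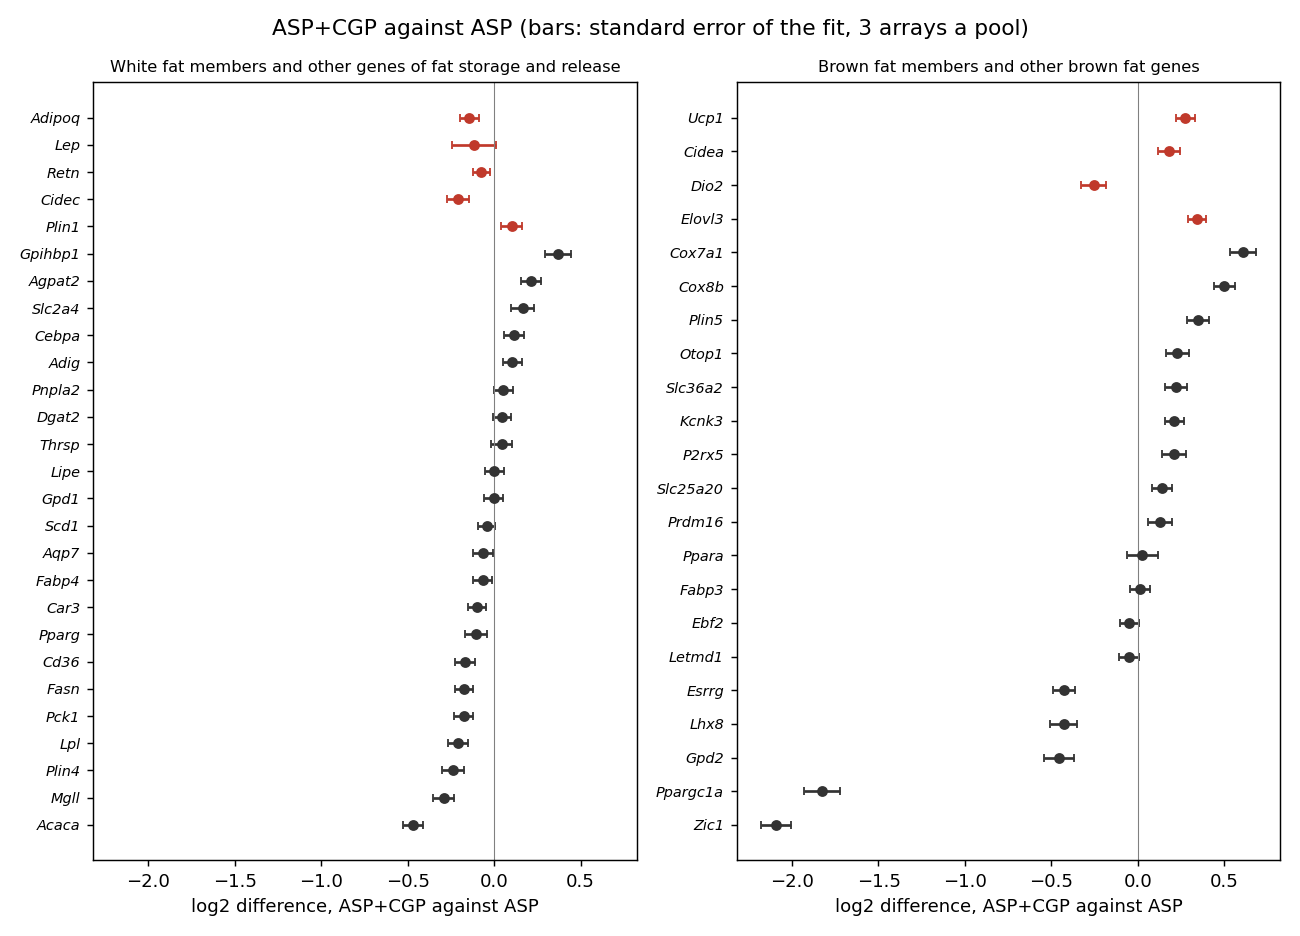
Log2 difference of ASP+CGP against ASP (horizontal axis) for the white fat members with other genes of fat storage and release (left) and for the brown fat members with other brown fat genes (right); red points are the members, black points the other genes and bars the standard error of the fit. Of the brown fat members, Ucp1, Cidea and Elovl3 lie right of 0 and Dio2 left of it; of the other brown fat genes, Cox7a1 and Cox8b lie farthest right and Zic1 and Ppargc1a farthest left.

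Other genes of fat storage and release had few called differences. Of 24 listed, 22 were tested. None was called in ASP against CON, against 9.81% higher and 8.13% lower among all genes. None was called in CGP against CON either, against 1.62% higher and 0.0189% lower. An adjusted limma p below 0.05 was found for 15 of 22 in ASP, against 55.3% of all genes. In CGP it was found for 4 of 22, against 3.01%. An unadjusted p below 0.05 was found for 15 and 12, and the medians were -0.12 and 0.12. Against CON, 1 was called lower in ASP+CGP (Mgll, monoglyceride lipase, 0.713 of CON, log2 difference -0.49, limma adjusted p = 2.1e-05), with a list median of -0.17. Among all genes 8.32% were called lower in that comparison. None was called in ASP+CGP against ASP, where 19.9% of all genes were called and the list median was -0.05. In that comparison 10 had an unadjusted limma p below 0.05. The same number had an adjusted p below 0.05, against 63.1% of all genes. In ASP+CGP against CGP 3 were called lower and none higher, against 11% lower and 8.57% higher among all genes. The list median was -0.25. The 3 were Pck1 (-0.66, limma adjusted p = 3.94e-07), Mgll (-0.54, 6.34e-06) and Aqp7 (-0.53, 5.2e-06). Pck1 also belongs to the 20 hepatocyte genes, all of which were called lower in this comparison (median -2.06). The difference of differences was called for Acaca (-0.57) and Pck1 (-0.52), where 24.6% of all genes were called. PCK1 makes the glycerol backbone of stored fat and AQP7 lets glycerol out of the adipocyte. Fabp4, the fatty acid binding protein of adipocytes, had pool means of 12.43 in CON, 12.53 in CGP, 12.45 in ASP and 12.38 in ASP+CGP. This order of pools is that of Retn.

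Brown fat genes besides the members were less uniform. Of 20 listed, 18 were tested, with a list median of 0.01 in ASP against CON. There 3 were called higher and none lower, against 9.81% higher and 8.13% lower among all genes. The differences ran from -0.38 to 2.33, and 12 of 18 had a limma adjusted p below 0.05, against 55.3% of all genes. The 3 called higher were Zic1 (5.01-fold, limma adjusted p = 8.03e-12), Ppargc1a (2.68-fold, 2.65e-08) and Lhx8 (1.49-fold, 2.36e-05). Zic1 had a CON mean of 5.85 and passed the filter on dim genes through the aspartame pools. Zic1 and Lhx8 are transcription factors of brown fat and of developing brain, and Ppargc1a is a coactivator of mitochondrial genes found in brown fat and in neurons. Nerve cell genes moved with them, with 13 of 13 tested (of 15 listed) higher in ASP at a median of 2.00, of which Nefm, Gad2 and Slc17a6 passed the filter through the ASP pool alone. The log2 of their summed signal was 14.47 to 14.53 on the ASP arrays and 12.27 to 12.50 on the other 9. Their part in the result was not tested. In ASP against CON Ucp1 was lower (-0.27, limma adjusted p = 0.000803) and Cidea differed by 0.11 (0.149), neither of them called. In ASP+CGP against ASP 2 of the 18 were called higher and 2 lower, with a list median of 0.08, where 19.9% of all genes were called. The genes called lower were Zic1 (log2 difference -2.09, limma adjusted p = 2.6e-11) and Ppargc1a (-1.83, 1.28e-09). Cox7a1 and Cox8b, subunit isoforms of cytochrome oxidase, rose 1.53-fold (7.04e-06) and 1.41-fold (7.26e-06). Skeletal muscle genes had a median of 0.36 in the same comparison, over 8 tested with a range of -2.21 to 0.65. All 8 had a limma adjusted p below 0.05, against 63.1% of all genes. At the call threshold 1 was higher (Tnni2, 0.65) and 1 lower (Pvalb, -2.21), where 19.9% of all genes were called. Pvalb was also the muscle gene called higher in ASP against CON, at 6.18-fold. The part of the muscle genes in the rise of Cox7a1 and Cox8b was not tested. Gpd2 (-0.46), Lhx8 (-0.43) and Esrrg (-0.43) were lower without reaching the fold minimum. Cox7a1, Cox8b, Gpd2 and Esrrg were picked out after their values had been seen.

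Lipid droplet proteins that other cells use too gave a median of -0.33 in ASP, 0.12 in CGP and -0.28 in ASP+CGP over 11 tested of 12 listed. At the call threshold 1 was lower in ASP, 2 were higher in CGP and 2 were lower in ASP+CGP. Among all genes the shares called in these directions were 8.13%, 1.62% and 8.32%. All 11 differences were negative in ASP (-0.98 to -0.09) and in ASP+CGP (-1.33 to -0.04). In CGP they ran from -0.07 to 0.67. Cideb, the relative of CIDEC in liver, fell to 0.507 of CON in ASP and to 0.398 in ASP+CGP, and rose 1.59-fold in CGP. Fitm1 rose 1.57-fold in CGP, and Hsd17b11 fell to 0.664 of CON in ASP+CGP. Cidec and Plin1 were not called in these comparisons.

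**Figure D4:**
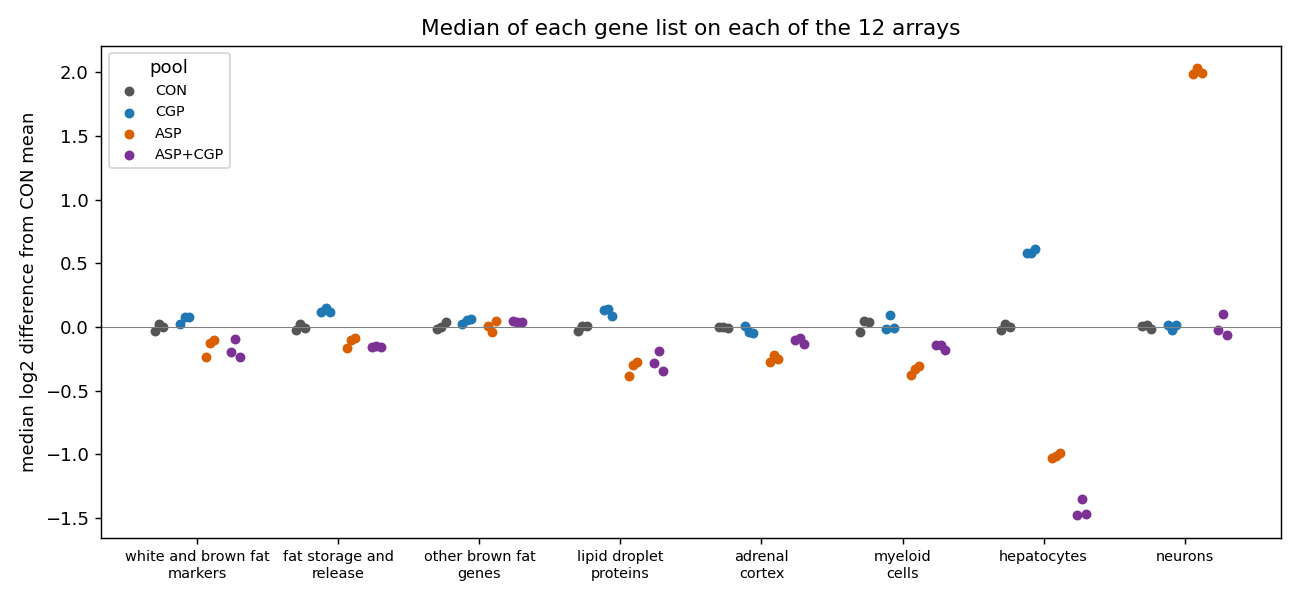
Median log2 difference from the CON mean over each gene list (vertical axis) on each of the 12 arrays, by list (horizontal axis) and pool (colour). The fat markers lie between -0.24 and 0.08, while hepatocyte genes reach from -1.48 to 0.61 and nerve cell genes 2.03 in ASP.

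Array by array, the median of the 9 members against the CON means was -0.03 to 0.02 on the CON arrays, 0.03 to 0.08 on the CGP arrays, -0.23 to -0.10 on the ASP arrays and -0.24 to -0.09 on the ASP+CGP arrays. The median over all genes was -0.11 to -0.08 on the ASP arrays and -0.19 to -0.12 on the ASP+CGP arrays. The arrays of both aspartame pools were below those of CON and CGP on both medians, and the fitted member median of ASP+CGP against CON turned to 0.03 with cyclic loess. Among all genes 8.13% were called lower in ASP against CON and 8.32% in ASP+CGP against CON. Adrenal cortex genes had medians of -0.25 in ASP and -0.11 in ASP+CGP, with 5 of 12 and 0 of 12 called lower. Myeloid genes had medians of -0.38 and -0.16, with 4 of 13 and 0 of 13 called lower. The part of these shifts in the fat marker values was not tested.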

How the data were processed

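Adrenal RNA was hybridised to 12 Affymetrix Mouse Gene 1.0 ST arrays, 3 for each of 4 pools. The authors deposited a log2 signal for each probe set, which the submitters' processing notes credit to RMA and Partek, with no version. RMA corrects background, equalizes the distributions of the arrays by quantiles and summarises probes by median polish. Of 26533 probe sets, 17710 name 1 gene, 1077 several and 7746 none in the platform annotation, and only the first kind was used. The probe set with the highest mean stood for its gene. Genes with a pool mean of at least 6 in a pool were tested and 344 were left out. All values were fitted in 1 linear model with a mean per pool in limma 3.58.1 (R 4.3.3, with version 1.17.8 of data.table), with eBayes and Benjamini-Hochberg adjustment over all genes within a contrast, and called at an adjusted p below 0.05 and a fold of at least 1.4, with 95% intervals. The scripts were tested on simulated data. Promoter motifs and plots were made with Python 3.11.15 and matplotlib 3.10.9. Quantile normalization equalizes probes, so that a large change in one tissue component can shift other genes, and the summarised signals of the arrays still differed in spread. Arrays have no read depth, and their number limits the precision. The replicates are arrays of 1 pool, so that replicate spread is technical.

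The members and gene lists were chosen with earlier results of these data known. The genes named were all members, up to 3 called genes with the largest difference from each other list (printed here for the lists of fat and lipid droplet genes, with Gad2, Tnni2 and Pvalb from other lists), and the genes nearest to Adipoq and Ucp1 had their pool means differed by 1.4-fold, which they did not. Exceptions, chosen after their values were seen, are Fabp4, Pck1, Aqp7, Acaca, Cox7a1, Cox8b, Gpd2, Esrrg, Alb, Star, Th, Nefm, Slc17a6 and the genes nearest to Elovl3 and to Lep. Lists of astrocytes and tanycytes, chromaffin cells, fibroblasts of the capsule, endothelium and skeletal muscle were also counted. In ASP against CON 7 of 9, 1 of 13, 0 of 13, 0 of 10 and 1 of 8 tested genes were called higher, in this order. Among all genes 9.81% were called higher. Called lower were 0 of 9, 4 of 13, 2 of 13, 5 of 10 and 0 of 8, against 8.13% of all genes. Alternatives changed the filter, array scaling, moderation, arrays in the fit, array weights, replicate block, fold minimum, adjustment and probe set choice.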

Additional observations from a re-analysis of the deposited data

Results flagged for a closer look

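The aspartame difference with CGP 39551 was tested against that without it, and the 2 differed for 5 of the 9 fat markers by limma at an adjusted p below 0.05, with 3 arrays a pool. The difference between them was -0.34 for Adipoq, 0.31 for Ucp1, -0.25 for Cidec, -0.24 for Retn and -0.27 for Elovl3, all on the log2 scale. None reached the fold minimum of 1.4, and 51.4% of all genes tested had an adjusted p below 0.05 in the same comparison. With cyclic loess and after centring on medians the sign of each of the 5 was kept, but not every adjusted p. For Elovl3 cyclic loess gave -0.15 (limma adjusted p = 0.0858). For Cidec cyclic loess gave -0.20 (0.0651) and centring -0.19 (0.0659), and leaving out single arrays gave an adjusted p of up to 0.0885.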

How the results depend on the processing

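Over 25 alternatives per comparison, 1270 of 1329 member values kept their sign and their side of the threshold, 8 lost the call, 33 gained it and 18 changed sign, 0 of these with a call before or after. Of the 18, array scaling gave 7 (Adipoq in ASP against CON and Retn in ASP+CGP against CON with both scalings, and with cyclic loess Adipoq and Plin1 in ASP+CGP against CON and Lep in the difference of differences), and 11 were values of Ucp1, Lep and Plin1 under array weights or with an array left out. Members called in ASP against CON went from 2 to 1 with a minimum mean of 7, with median centring and with cyclic loess, to 4 without a fold minimum and to 0 at 1.8-fold. In CGP against CON the 1 call went to 0 at 1.8-fold. For ASP+CGP against CON the 1 call went to 0 with the mean of 7 and at 1.8-fold, to 3 with cyclic loess and to 7 without a fold minimum. For ASP+CGP against ASP the 0 became 6 without a fold minimum. For ASP+CGP against CGP the 1 became 3 with cyclic loess, 2 with array weights and 8 without a fold minimum, and the 0 of the difference of differences became 5.

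Median member differences moved with cyclic loess from -0.15 to -0.054 in ASP against CON and from -0.17 to 0.034 in ASP+CGP against CON. With the mean of 7, which drops Lep and Dio2, they moved from 0.07 to 0.10 in CGP against CON, from -0.07 to 0.10 in ASP+CGP against ASP and from -0.13 to -0.24 for the difference of differences. Median centring moved -0.23 to -0.16 in ASP+CGP against CGP. Except where a filter removes genes, the cause was not tested. Cyclic loess raised the median of all genes by 0.11 in ASP against CON, 0.15 in ASP+CGP against CON and 0.16 in ASP+CGP against CGP, and gave 1939 genes higher and 481 lower in ASP against CON, where the deposited scale gave 1559 and 1292. Against CON it gave for ASP+CGP 679 and 500 in place of 969 and 1323.

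Leaving out each array gave 1 to 2 calls in ASP against CON, where Lep was lost without CON replicate 2 or 3, and 1 to 2 in ASP+CGP against CGP, where Lep was gained without CGP replicate 1 or ASP+CGP replicate 2. It gave 1 in CGP and in ASP+CGP against CON, and 0 in ASP+CGP against ASP and in the difference of differences. The medians ranged from -0.17 to -0.10 in ASP against CON, 0.05 to 0.08 in CGP against CON, -0.21 to -0.14 in ASP+CGP against CON, -0.08 to -0.03 in ASP+CGP against ASP, -0.30 to -0.22 in ASP+CGP against CGP and -0.19 to -0.06 for the difference of differences. Whether the replicate numbers pair the arrays cannot be decided from these values. Of 18 correlations of same-numbered deviations, 8 passed 0.1 (range -0.15 to 0.38), and differently numbered arrays were not compared. With the replicate block the calls were 2 in ASP against CON, 1 in CGP against CON, 1 in ASP+CGP against CON, 0 in ASP+CGP against ASP, 1 in ASP+CGP against CGP and 0 for the difference of differences. Lep and Dio2 lie near the dim end of the signal range, where precision is lowest.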
